A study of Homo sapiens with 6 samples.

Results

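The 9 genes described here, *DDX58*, *IFIH1*, *TLR3*, *EIF2AK2*, *OAS1*, *IFIT1*, *IFIT2*, *IFIT3* and *ISG15*, sense double-stranded RNA (dsRNA) or answer to interferon. They were taken by gene symbol from the 21863 symbols of the deposited list, and each of the 9 is listed on a single line. RNA of Hep G2 cells, a line derived from a human liver tumor, was sequenced after transfection with 5 nM of a dsRNA mimicking *miR-195*, with 5 nM of a dsRNA mimicking *miR-497*, or from non-transfected cells (NT). The transfected cells were collected after 24 hours, whereas the labels of NT give a time of 0 hours. From each condition 1 library was made from total RNA and 1 from RNA coimmunoprecipitated with an antibody to Argonaute 2 (Ago2-IP), the protein that carries a miRNA to its target mRNAs. These 6 libraries hold no library of cells given a control dsRNA. A response to transfected dsRNA as such, the sequence of a mimic and the time in culture therefore cannot be told apart in any comparison with NT. Both comparisons with NT use the same NT libraries, and only the comparison of the 2 mimics sets transfected cells against transfected cells. No condition has a replicate, so no test between conditions was possible, and every difference below is a description of the libraries. Counting intervals are given for most values of the members and for a few other genes.

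Cells recognise dsRNA through proteins that bind it directly. RIG-I, encoded by *DDX58*, and MDA5, encoded by *IFIH1*, are cytoplasmic helicases that signal through the mitochondrial adaptor MAVS, while TLR3 reads dsRNA inside endosomes and signals through TICAM1. Both routes activate IRF and NF-κB transcription factors, which switch on interferon genes. Secreted interferon acts through cell surface receptors, JAK kinases and the transcription factors they switch on and raises the transcription of interferon-stimulated genes, among them all of the sensors named here and the effectors *OAS1*, *IFIT1*, *IFIT2*, *IFIT3* and *ISG15*. PKR, encoded by *EIF2AK2*, and OAS1 are enzymes that dsRNA itself switches on. Hepatocytes use this system against hepatitis viruses.

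The sequences of both miRNAs are shown because they share a seed and differ outside it, and the sites are shown because a member that carries one is also a candidate target of the mimics. Mature sequences are from RefSeq, 5′ to 3′, with the seed (bases 2 to 8) in capitals. Both lie on the minus strand of chromosome 17 and share the seed AGCAGCA, which pairs with TGCTGCT in a target.
hsa-miR-195-5p: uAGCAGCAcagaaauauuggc
hsa-miR-497-5p: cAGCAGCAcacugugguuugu
Among 19284 protein-coding genes of GENCODE release 44 (GRCh37, that is hg19), 24.6% carry TGCTGCT in at least 1 annotated 3′UTR. Of the 9 members, *IFIT1* holds it in both of its 3′UTRs, *IFIT3* in 3 of 13 and *OAS1* in 3 of 22, and the transcripts of *IFIT3* and *OAS1* that hold it are not the canonical ones. It was not found in a 3′UTR of *IFIT2*, *ISG15*, *DDX58*, *IFIH1*, *EIF2AK2* or *TLR3*. The sites of *IFIT3* and *OAS1* below are on the plus strand of GRCh37, at chr10:91100960-91100985 (*IFIT3*), chr12:113355253-113355278 and chr12:113370446-113370471 (*OAS1*), with the match in capitals.
IFIT3 site: agttagcagcTGCTGCTgtagacagg
OAS1 site 1: gttcatcccaTGCTGCTattttgctc
OAS1 site 2: gtaataaaacTGCTGCTatttactca
A match is a description of these letters and not a measured binding site.

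Promoter sequences are shown because interferon acts on these genes through a short DNA element, the interferon-stimulated response element (ISRE). Its letters GAAANNGAAA were searched on either strand in the RefSeq promoter windows, which reach from 250 bases before to 50 bases after the start of each gene. They were found in 3.57% of 35116 promoters. A window was found for 8 of the 9 members (not *IFIT2*), and 6 of these 8 hold the letters. *OAS1* and *DDX58* do not hold them in this window. The stretches below were placed on GRCh37 by a unique exact match, at chr1:948760-948789 (*ISG15*), chr10:91152254-91152283 (*IFIT1*), chr10:91087622-91087651 (*IFIT3*), chr2:163175196-163175225 (*IFIH1*, minus strand), chr2:37384110-37384139 (*EIF2AK2*, minus strand) and chr4:186990296-186990325 (*TLR3*). The capitals mark the match or its reverse complement.
ISG15: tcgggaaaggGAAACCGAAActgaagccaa
IFIT1: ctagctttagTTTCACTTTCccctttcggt
IFIT3: tttaaattagTTTCACTTTCcagtttcctc
IFIH1: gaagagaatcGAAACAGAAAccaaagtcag
EIF2AK2: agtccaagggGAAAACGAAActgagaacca
TLR3: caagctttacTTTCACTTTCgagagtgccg

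Values are RPKM, a read number divided by gene length and by the number of mapped reads, so levels of different genes can be compared per length. Read numbers were inferred from the RPKM, which stand in whole-number ratios, for 15064 genes. Summed over these genes they give 21786377 to 28354355 reads in the total RNA libraries and 2217204 to 4584217 in the Ago2-IP libraries. These sums are 87.2% to 91.6% of the mapped reads in total RNA but 20.8% to 33.7% in Ago2-IP, and the Ago2-IP values rest on far fewer reads. The sums and shares are approximate, since the reads inferred for some abundant genes imply too long a gene and other genes have none. All intervals below are 95% intervals that cover counting error only and hold no variation between cultures or libraries. The 10 hepatocyte markers were at 1 RPKM or more in each total RNA library. Of 6 leukocyte markers, *PTPRC* and *CD3E* were listed at 0 in all 6 libraries, and the sum of the 6 was 11.5, 14.3 and 15.0 RPKM in total RNA of NT, *miR-195* and *miR-497* cells, of which 10.5, 13.1 and 13.8 came from *CD68*, a lysosomal protein that is not limited to leukocytes. Of 4 fibroblast markers, *COL1A2* and *DCN* were listed at 0 in all 6 libraries, and the 4 summed to 0.0887, 0.396 and 0.227 RPKM. The 3 endothelial markers summed to 0.283, 0.424 and 0.330 RPKM. These sums were higher with both mimics than in NT, and their part in the differences below was not tested.

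In NT total RNA the 9 genes covered a wide range of levels. *EIF2AK2* was the highest at 18.7 RPKM, followed by *ISG15* (12.8), *DDX58* (5.25), *OAS1* (2.12), *IFIT3* (1.65), *IFIT1* (1.39) and *IFIH1* (1.11). *IFIT2* and *TLR3* were last, at 0.0231 and 0.0133 RPKM. The counting intervals of *OAS1* and *IFIT3*, of *IFIT3* and *IFIT1*, of *IFIT1* and *IFIH1*, and of *IFIT2* and *TLR3* overlapped, so these neighbours were not told apart at this depth. Against all 21863 symbols, *EIF2AK2* stood at the 82.7th percentile and *IFIH1* at the 50.9th.

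**Figure D1:**
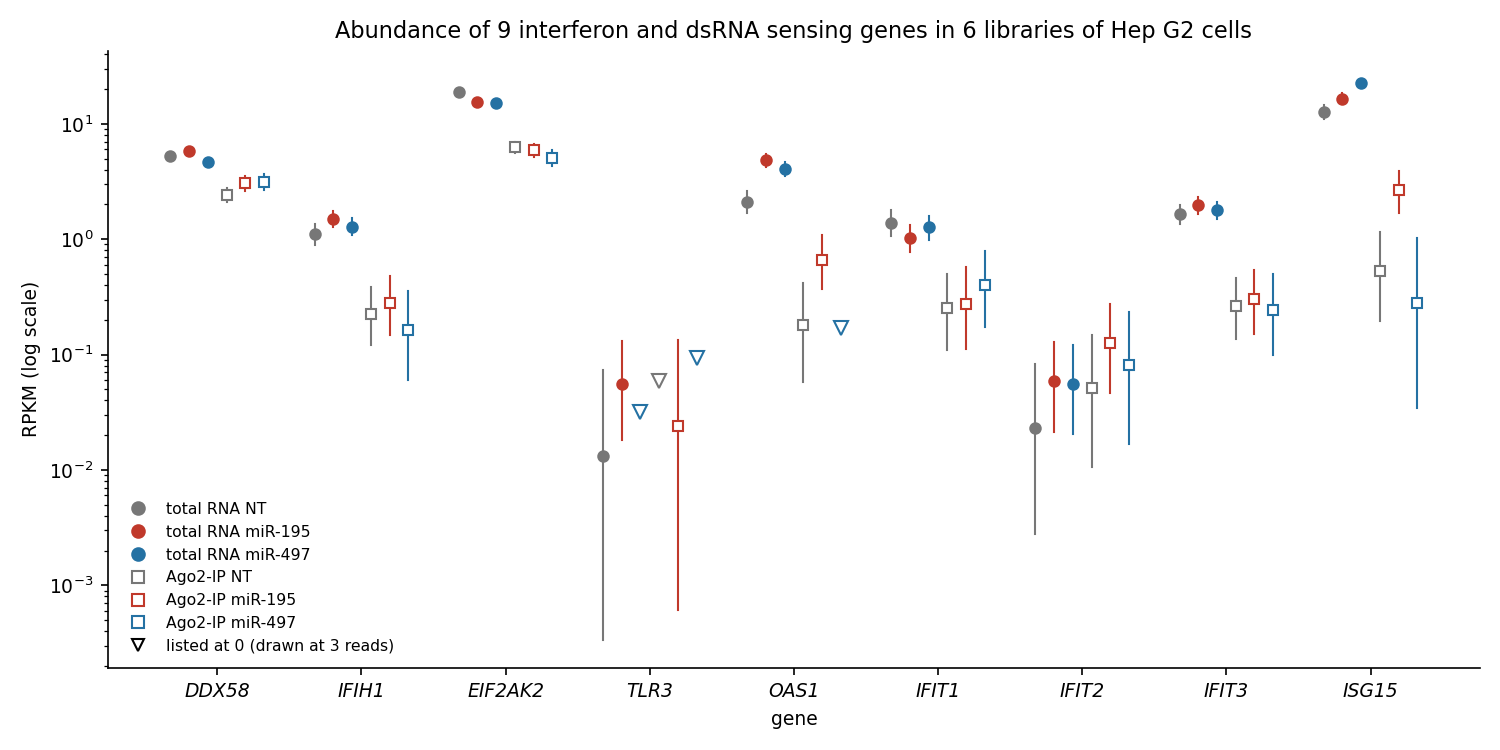
RPKM (log scale) of the 9 genes in the 6 libraries, with filled circles for total RNA, open squares for Ago2-IP, vertical lines for 95% counting intervals and triangles, drawn at the value of 3 reads, for genes listed at 0. *OAS1* and *ISG15* lie higher with both mimics than in NT in total RNA, *EIF2AK2* lies lower, and *TLR3* and *IFIT2* rest on at most 6 reads in any library.

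*DDX58* (chr9:32455300-32526206, minus strand, listed as *RIGI* in the annotation) encodes the helicase RIG-I, which binds short dsRNA whose 5′ end carries a triphosphate. In total RNA its RPKM were 5.25 in NT (617 reads), 5.78 with *miR-195* (806 reads) and 4.66 for *miR-497* (686 reads). The NT value lay between those of the mimics. The ratio to NT was 1.10 with *miR-195* (0.990 to 1.23) and 0.888 for *miR-497* (0.795 to 0.992), and relative to genes of like G+C content the *miR-497* value turned to 0.08 above them on the log2 scale. In bulk RNA a change in the share of responding cells and a change in the RNA of each cell cannot be told apart, here or below.

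*IFIH1* (chr2:163123584-163175194, minus strand) encodes MDA5, the helicase that binds long dsRNA. It was at 1.11, 1.49 and 1.28 RPKM in total RNA of NT, *miR-195* and *miR-497* cells, from 94, 150 and 136 reads. Both mimic libraries were above NT. The ratio was 1.35 with *miR-195* (1.03 to 1.76) and 1.16 for *miR-497* (0.882 to 1.52), and the second interval includes 1.

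*EIF2AK2* (chr2:37326353-37384665, minus strand) encodes PKR, the kinase that stops translation when it binds dsRNA. Its RPKM in total RNA were 18.7 in NT (1356 reads), 15.5 with *miR-195* (1333 reads) and 15.2 for *miR-497* (1380 reads). NT was the highest library and the mimics were alike. With *miR-195* the ratio was 0.829 (0.768 to 0.894) and with *miR-497* it was 0.813 (0.754 to 0.877). *EIF2AK2* was the only member whose interval lay below 1 with both mimics.

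*TLR3* (chr4:186990065-187009227), the endosomal receptor, was close to the detection limit. It had 1 read in NT total RNA, 5 with *miR-195* and none with *miR-497*, where the interval of a count of 0 reaches 0.0392 RPKM. The ratio of *miR-195* to NT, 4.21, had an interval from 0.472 to 199, so no change was detectable at this depth.

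*OAS1* (chr12:113343661-113371024) makes the 2′-5′ linked oligoadenylates that switch on RNase L, and it differed most from NT among the members with more than 6 reads in each total RNA library. Its RPKM were 2.12 in NT (87 reads), 4.82 with *miR-195* (235 reads) and 4.08 for *miR-497* (210 reads). Both mimic libraries lay well above NT and near each other. The ratio to NT was 2.28 with *miR-195* (1.77 to 2.95) and 1.93 for *miR-497* (1.495 to 2.51), at the 95.8th and the 92.4th percentile of all genes measured. The sites in *OAS1* transcripts shown above were not accompanied by a lower level in total RNA with either mimic. Exons of *OAS1* and *ISG15* overlap an antisense gene and those of *EIF2AK2* overlap *GPATCH11* on the other strand. Whether the authors' counting used strand is not given in the sources used here, so reads of such partners cannot be told apart.

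The *IFIT* genes encode proteins that bind foreign RNA and block its translation, and 3 of them are members on chromosome 10. *IFIT1* (chr10:91152303-91166244) recognises RNA whose cap lacks a methyl mark. It had 1.39, 1.03 and 1.27 RPKM in total RNA of NT, *miR-195* and *miR-497* cells, from 64, 56 and 73 reads, and NT was the highest. The ratios were 0.738 (0.506 to 1.07) and 0.911 (0.642 to 1.295), and both intervals include 1. *IFIT3* (chr10:91087064-91137230), which stabilises IFIT1, had 1.65, 1.97 and 1.78 RPKM from 110, 155 and 148 reads, and NT was the lowest. Its ratios were 1.19 (0.924 to 1.53) and 1.08 (0.834 to 1.39). *IFIT2* (chr10:91043451-91069028) had 2, 6 and 6 reads in the same libraries, too few to show a change. Exons of *IFIT2* and *IFIT3* overlap those of *LIPA* on the other strand.

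*ISG15* (chr1:936518-949920) encodes a small ubiquitin-like protein that is joined to other proteins during an interferon response. Its RPKM in total RNA were 12.8 in NT (210 reads), 16.5 with *miR-195* (322 reads) and 22.4 for *miR-497* (463 reads). The counting intervals of the 3 libraries did not overlap, and NT was the lowest. The ratio to NT was 1.29 with *miR-195* (1.08 to 1.55) and 1.76 for *miR-497* (1.49 to 2.08). *ISG15* has a G+C content of 63.9%, in the highest of 10 classes of genes, and the median change of all genes in that class was 0.18 with *miR-195* and 0.68 for *miR-497* on the log2 scale. Above that class *ISG15* stood by 0.19 and 0.14.

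With *miR-195*, 7 of 9 members were higher than in NT total RNA, and 3 were 2-fold or more higher (*OAS1*, *IFIT2* and *TLR3*). Of all 14740 genes above 0 in both libraries 5.81% were 2-fold or more higher and 3.20% were 2-fold or more lower. No member was 2-fold lower. The median log2 ratio of the members was 0.37, against 0.017 over all genes. With *miR-497*, 5 of 8 members measured were higher than in NT, *IFIT2* alone was 2-fold or more higher (background 6.67% higher and 2.11% lower) and none was 2-fold lower. The median was 0.16 against 0.091. Since *IFIT2* and *TLR3* rest on few reads, the same was taken over the 7 members at 0.1 RPKM or more. All of these but *IFIT1* and *EIF2AK2* were higher than NT with *miR-195*, and all but *IFIT1*, *EIF2AK2* and *DDX58* with *miR-497*. At the same limit 6678 of 12916 genes were higher than NT with *miR-195* and 7419 of 12957 with *miR-497*. Of the 7 members, *OAS1* was 2-fold higher with *miR-195* (background 3.18%) and no member was 2-fold higher with *miR-497* (background 3.95%). The same 7 are at 1 RPKM or more in each total RNA library, where the background was 0.995% and 1.58%. Their medians were 0.25 and 0.10. At 1.5-fold, 3 of the 8 members measured were higher with *miR-497* (*OAS1*, *ISG15* and *IFIT2*), where 19.1% of all genes were.

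**Figure D2:**
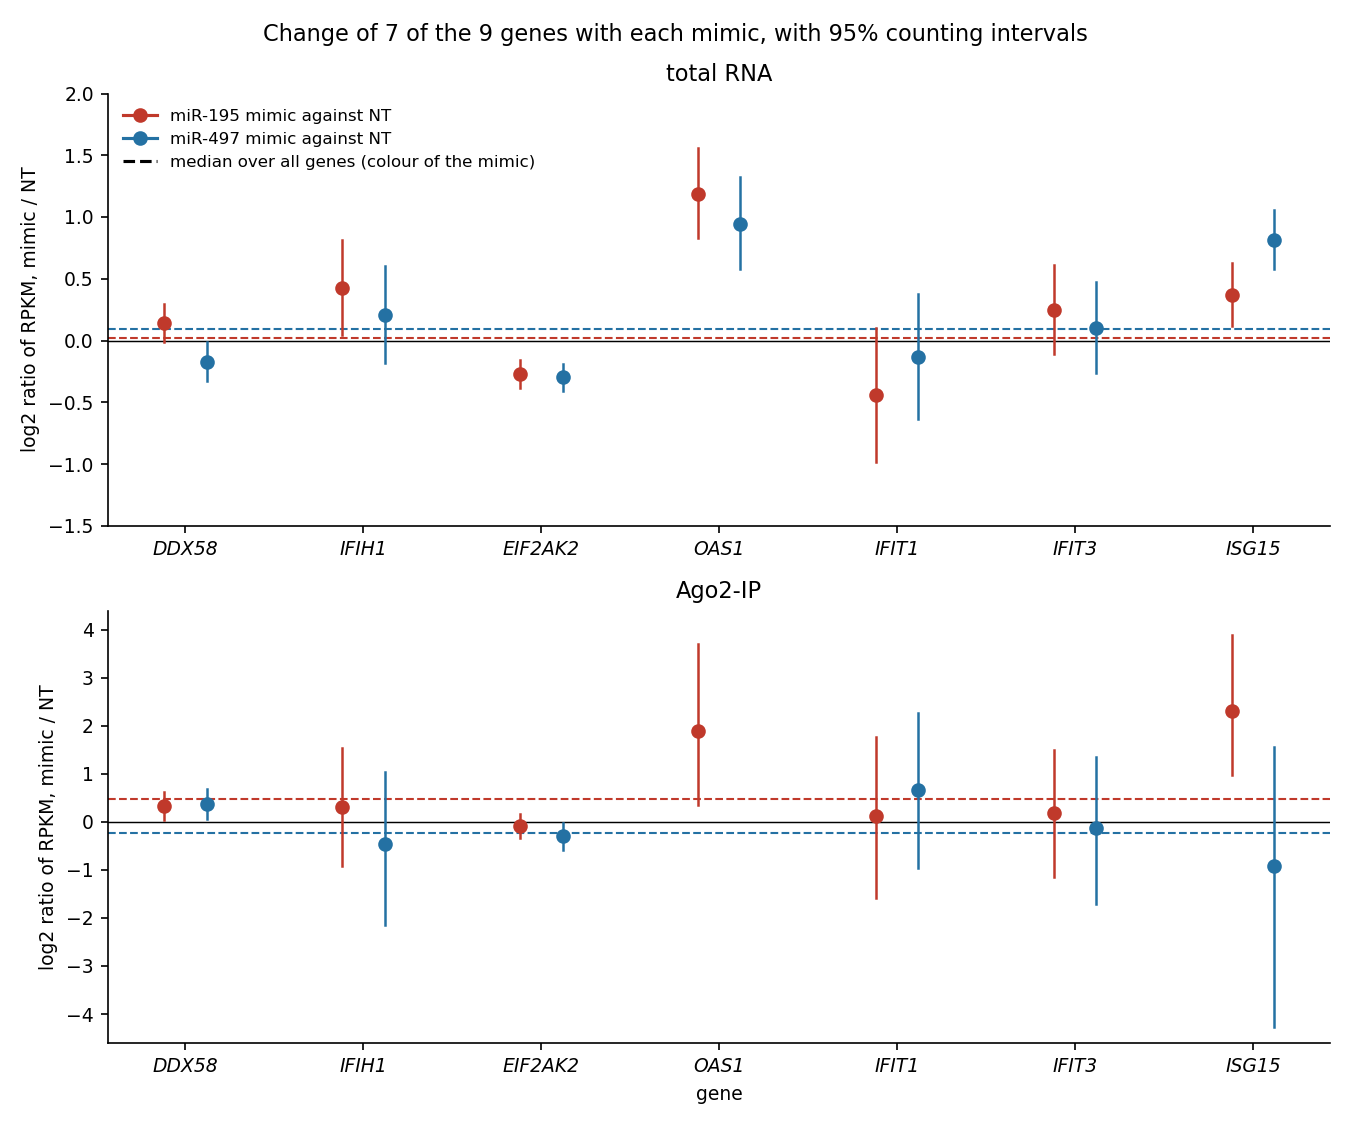
Log2 ratio of each mimic library to NT in total RNA (top) and in Ago2-IP (bottom) for 7 members, with 95% counting intervals and the median of all genes as a dashed line in the colour of the mimic. *IFIT2* and *TLR3* are left out for their low reads, and *OAS1* has no *miR-497* point in Ago2-IP because it is listed at 0. In total RNA *OAS1* is the highest with both mimics and *EIF2AK2* lies below 0 with both.

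The mimics were next compared with each other, since both groups of cells were transfected at the same dose and collected at the same time. *ISG15* was lower with *miR-195* than with *miR-497*, with a ratio of 0.734 (0.635 to 0.848) in total RNA, and *DDX58* was higher, with a ratio of 1.24 (1.12 to 1.38). Measured from its G+C class, however, *ISG15* stood 0.19 above with *miR-195* and 0.14 with *miR-497* on the log2 scale, so that the order of the mimics turned. *DDX58* stood 0.24 above its class with *miR-195* and 0.08 with *miR-497*. Its order stayed, at a smaller distance than the log2 ratio of 0.31 between the mimics. For the other members with more than 6 reads the interval included 1. *OAS1* had a ratio of 1.18 (0.976 to 1.43), *EIF2AK2* 1.02 (0.945 to 1.10), *IFIH1* 1.16 (0.917 to 1.48), *IFIT1* 0.810 (0.561 to 1.16) and *IFIT3* 1.11 (0.877 to 1.39). An interval that includes 1 does not show that the mimics acted alike, and only that of *EIF2AK2* was narrow. None of the 8 members measured differed by 2-fold or more (background 3.12% higher and 3.64% lower with *miR-195*).

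The change of a gene with a mimic moved with its G+C content over the whole list. From the lowest to the highest of 10 G+C classes, the median log2 ratio of all genes in total RNA went with *miR-195* from -0.11 up to 0.18, and with *miR-497* from -0.25 up to 0.68. *EIF2AK2* (38.5%), *DDX58* (39.9%), *IFIH1* (41.0%), *IFIT1* (42.0%) and *IFIT3* (44.2%) are poor in G+C, *OAS1* is intermediate (50.6%) and *ISG15* is rich (63.9%). Measured from its own class, *OAS1* stood 1.17 higher with *miR-195* and 0.82 for *miR-497*, nearly as far as from NT itself. *EIF2AK2* was 0.17 and 0.05 below its class, so most of its distance from NT with *miR-497* was shared by genes of like composition. *IFIH1* was 0.53 and 0.41 above its class, *IFIT3* 0.31 and 0.24, and *DDX58* 0.24 and 0.08. *IFIT1* was 0.34 below its class with *miR-195* but 0.07 above it with *miR-497*. The part of G+C content in these values was not tested.

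**Figure D3:**
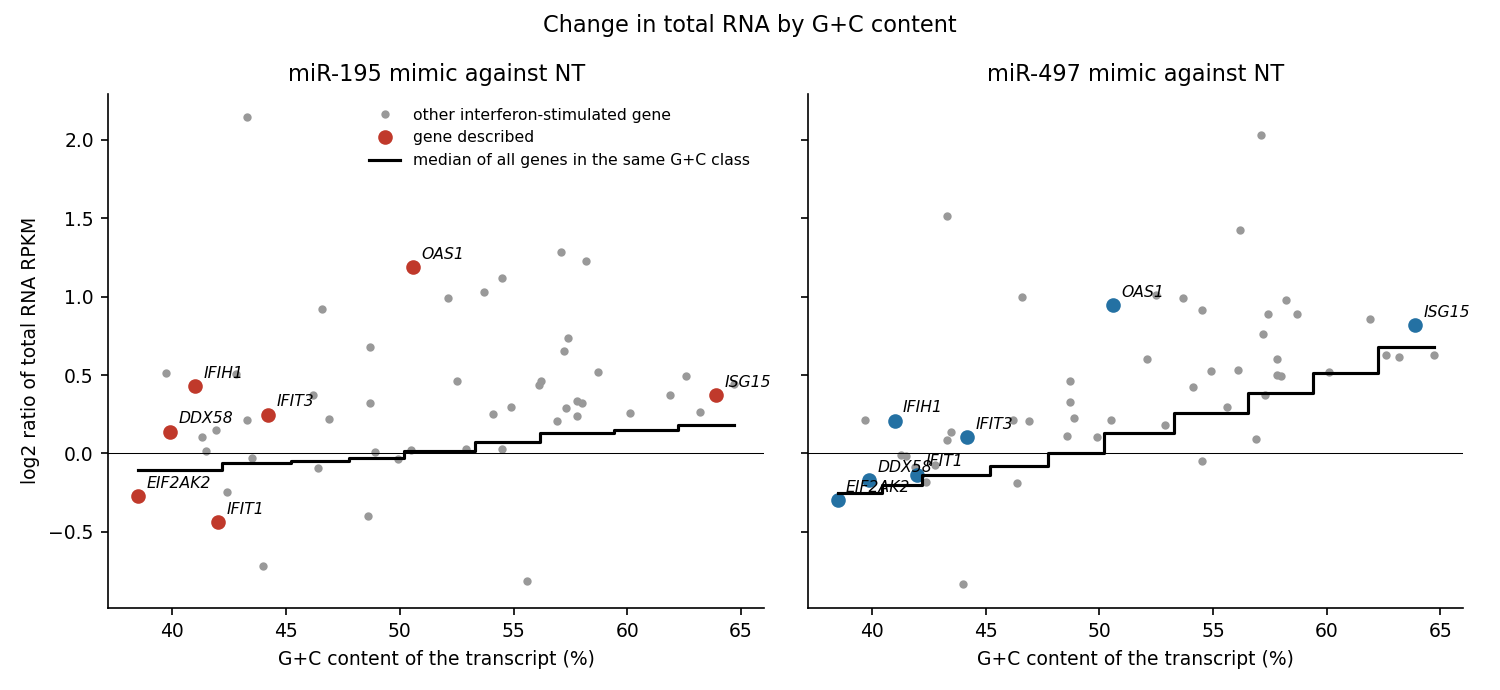
Log2 ratio of each mimic library to NT in total RNA against the G+C content of the transcript, for members (coloured, named) and other interferon-stimulated genes (grey) at 0.1 RPKM or more, with the median of all genes in the same of 10 G+C classes as a stepped line. The line climbs more steeply with *miR-497*, *ISG15* sits near it, and *OAS1* stands above it with both mimics.

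In Ago2-IP the members were compared with total RNA of the same condition. RPKM are scaled to all mapped reads, of which the genes with inferred reads took about 88.1% in NT total RNA but 24.3% in NT Ago2-IP. The ratio is therefore no measure of the share recovered. Over the members above 0 in both NT libraries, its median log2 value of -2.37 became -0.54 when libraries were scaled by their median RPKM. In NT cells the Ago2-IP to total RNA ratio was lowest for *ISG15* at 0.0420 (0.0152 to 0.0929), with 6 reads in Ago2-IP, and for *OAS1* at 0.0845 (0.0268 to 0.205), with 5 reads. It was 0.160 for *IFIT3*, 0.184 for *IFIT1* and 0.203 for *IFIH1*. The sensors *EIF2AK2*, at 0.335 (0.295 to 0.379), and *DDX58*, at 0.460 (0.389 to 0.541), had higher ratios, and their intervals did not overlap those of *OAS1* and *ISG15*. Each of the 7 members at 0.1 RPKM or more in both libraries was 2-fold or more lower in Ago2-IP, as were 73.7% of all genes at that level (3.80% were 2-fold or more higher). The median log2 ratio was -2.44 for these members and -1.72 for all genes. The inferred length was shortest for *ISG15* (666 bases) and longest for *DDX58* (4756 bases), and the part of length in this order was not tested. *IFIT2*, at 2.21 with 3 reads, had an interval from 0.253 to 26.4.

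**Figure D4:**
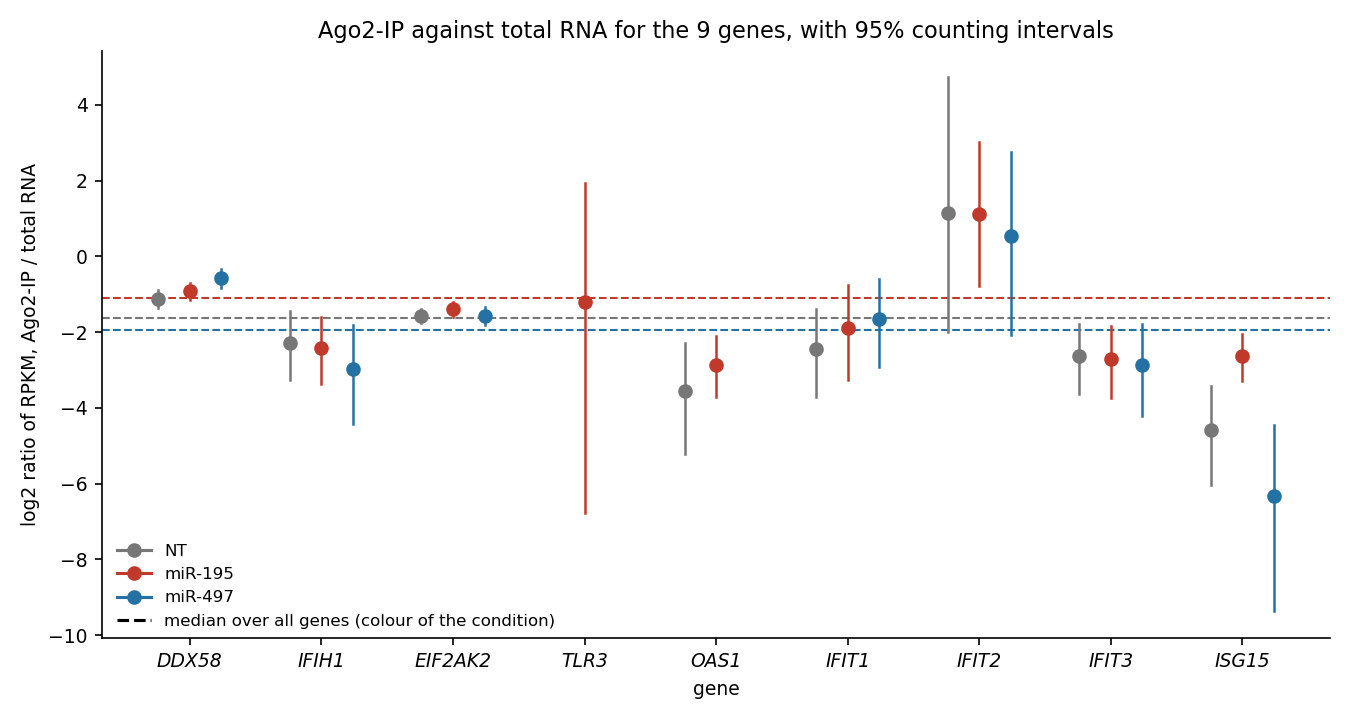
Log2 ratio of Ago2-IP to total RNA for the members in NT (grey), *miR-195* (red) and *miR-497* (blue) cells, with 95% counting intervals and the median of all genes in each condition as a dashed line. *DDX58* and *EIF2AK2* sit near or above these medians with narrow intervals, and *ISG15* is the lowest in NT and, among members above 0, with *miR-497*, where *OAS1* is listed at 0 in Ago2-IP and has no point.

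With the mimics, the level of all genes in Ago2-IP moved, by a median log2 ratio to NT of 0.48 with *miR-195* and -0.23 for *miR-497*. *ISG15* had 0.535, 2.65 and 0.282 RPKM in Ago2-IP of NT, *miR-195* and *miR-497* cells, from 6, 24 and 2 reads. The *miR-195* library was the highest, 4.94 times NT (1.97 to 14.8) and 9.39 times *miR-497* (2.33 to 82.0). *OAS1* had 0.179 RPKM in NT and 0.662 with *miR-195*, from 5 and 15 reads, and was listed at 0 with *miR-497*. Its ratio of *miR-195* to NT was 3.71 (1.28 to 13.0), and against the value of 3 reads in the *miR-497* library it was at least 3.91-fold higher with *miR-195*, while the counting interval of 15 reads against 0 starts at 2.81. Relative to the all-gene median, *ISG15* and *OAS1* with *miR-195* were 1.83 and 1.42 above on the log2 scale.

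*DDX58* had 2.41, 3.04 and 3.12 RPKM in Ago2-IP, from 193, 197 and 158 reads, and NT was the lowest. The ratio to NT was 1.26 with *miR-195* (1.03 to 1.55), which became a log2 value of -0.12 when libraries were scaled by their median RPKM, and 1.29 for *miR-497* (1.04 to 1.60), which was 0.60 above the all-gene median. *EIF2AK2* had 6.27, 5.89 and 5.09 RPKM from 309, 235 and 159 reads, and its ratios were 0.940 (0.790 to 1.12) and 0.813 (0.667 to 0.987). On the log2 scale these are -0.09 and -0.30, and they became -0.54 and -0.05 when libraries were scaled by their median RPKM, so which mimic was lower depended on the scaling. For *IFIT1*, *IFIT3* and *IFIH1*, with 6 to 13 reads in each Ago2-IP library, all intervals included 1. *IFIT2* had 3, 6 and 3 reads, and *TLR3* had 1 read, with *miR-195*. Of the 8 members measured with *miR-195*, 3 were 2-fold or more higher than in NT (*ISG15*, *OAS1* and *IFIT2*), where 23.7% of all genes were (2.58% were 2-fold lower). With *miR-497* none of 7 was 2-fold higher or lower (background 3.48% and 6.27%). Between the mimics, *ISG15* alone of the 7 members above 0 in both libraries, a count that leaves out *OAS1*, was 2-fold or more higher with *miR-195* (background 35.3% higher and 2.07% lower).

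The fold enrichment score divides the Ago2-IP to total RNA ratio with a mimic by the same ratio in NT, and it is the study's measure of recruitment to Ago2. Over all genes scored its median was 1.38 with *miR-195* and 0.824 for *miR-497*. *ISG15*, which has no TGCTGCT in its 3′UTR, scored 3.83 with *miR-195* (1.54 to 9.52) and 0.299 for *miR-497* (0.0599 to 1.49), from opposite ends of the list of all genes at the 96.0th and the 4.3rd percentile. *IFIT1*, whose 3′UTR has the site, scored 1.47 (0.4999 to 4.30) and 1.73 (0.615 to 4.89), at the 55.6th and the 95.5th percentile. The site is also in some transcripts of *IFIT3*, which scored 0.954 (0.406 to 2.24) and 0.858 (0.327 to 2.25), and of *OAS1*, which scored 1.63 with *miR-195* (0.575 to 4.61) and has no score with *miR-497*. *IFIH1*, without the site, scored 0.919 (0.408 to 2.07) and 0.631 (0.232 to 1.72). All intervals of *IFIT1*, *IFIT3*, *OAS1* and *IFIH1* include 1, while that of *ISG15* with *miR-195* lies above 1. *DDX58*, without the site, scored 1.15 (0.915 to 1.43) and 1.46 (1.15 to 1.85), at the 32.5th and the 93.0th percentile. *EIF2AK2* scored 1.13 (0.942 to 1.37) with *miR-195*, while with *miR-497* its interval was 0.814 to 1.23, and neither score was told apart from 1. Against all genes it stood at the 31.5th and the 69.9th percentile. Its *miR-195* interval lay below the all-gene median of 1.38, and its *miR-497* interval held that of 0.824.

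The rest of the pathway was described with lists of other genes. Of 21 interferon ligand genes, 20 were listed at 0 in all 6 libraries, and the exception, *IFNB1*, the gene of interferon β, was listed at 0.0707 RPKM in Ago2-IP of NT and at 0 elsewhere. All 6 receptor genes were above 0 in NT total RNA. *IFNGR1*, a chain of the interferon γ receptor, was at 102, 104 and 91.4 RPKM in total RNA of NT, *miR-195* and *miR-497* cells, and *IFNGR2* at 21.4, 15.6 and 18.4. *IFNAR1* and *IFNAR2*, the chains of the receptor for interferons α and β, were at 12.0, 12.6 and 10.97 and at 7.48, 7.61 and 7.33. *IL10RB*, shared by the interferon λ receptor, was at 8.32, 7.42 and 8.64, and its partner *IL28RA* stayed under 0.03 RPKM. With 1, 0 and 2 reads in total RNA of NT, *miR-195* and *miR-497* cells, *IL28RA* was at the detection limit. The mRNA of the other receptor genes was present in every condition, while ligand mRNA was not detectable in total RNA at this depth.

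Over the 72 genes of sensing and signalling, 45 were at 0.1 RPKM or more with *miR-195* and 46 for *miR-497*, and their median log2 ratios to NT were 0.042 and 0.088, against 0.015 and 0.083 over all genes. With *miR-195*, 27 of 45 were higher (all genes, 6678 of 12916), 2 by 2-fold or more, and 1 was 2-fold lower (background 3.18% and 1.42%). With *miR-497*, 29 of 46 were higher (all genes, 7419 of 12957), 4 by 2-fold or more, and none was 2-fold lower (background 3.95% and 0.594%). *TMEM173*, the gene of the DNA-sensing adaptor STING, went from 0.762 RPKM in NT to 2.07 and 1.97, which is 2.71-fold (1.90 to 3.95) and 2.59-fold (1.81 to 3.77). *SOCS1*, an inhibitor of JAK kinases, went from 0.532 to 1.12 and 1.301, from only 16, 40 and 49 reads. *TRADD*, an adaptor of death receptors, went from 2.10 to 3.77 and 5.25. *DHX58*, the gene of the third RIG-I-like helicase LGP2, went from 0.448 to 0.807 and 1.04. In contrast, *CHUK*, a kinase of the NF-κB pathway, was lower, at 41.4, 20.1 and 27.3 RPKM.

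Genes downstream of MAVS and of the receptors were expressed in every condition. *MAVS* itself was at 20.7, 27.7 and 28.2 RPKM in total RNA of NT, *miR-195* and *miR-497* cells, and *TANK* at 24.2, 32.9 and 24.5. The transcription factor *IRF3* was at 12.7, 14.7 and 18.5, and *NFKB1* at 17.7, 16.0 and 18.5. The receptor-associated kinase *JAK1* was at 37.8, 40.5 and 34.9.

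The 61 other interferon-stimulated genes were on balance higher with both mimics. At 0.1 RPKM or more, 39 of 46 were higher than NT with *miR-195* and 38 of 46 with *miR-497* (all genes, 6678 of 12916 and 7419 of 12957). Their median log2 ratios were 0.31 and 0.44 (all genes, 0.015 and 0.083). The differences were small: 5 of 46 were 2-fold or more higher with *miR-195* (background 3.18%) and 4 for *miR-497* (background 3.95%), and none was 2-fold lower. Measured from their own G+C classes, 38 and 35 of the 46 stood above the class, with medians of 0.24 and 0.20. With a median G+C content of 53.3%, this list is richer than the members at 0.1 RPKM or more (42.0%) and than all genes (49.7%). ISRE letters were found in the promoters of 30 of 49 of these genes (61.2%), against 9 of 55 sensing and signalling genes (16.4%).

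Among the antiviral effectors, *IFI27* was at 0.558, 1.36 and 2.28 RPKM in total RNA of NT, *miR-195* and *miR-497* cells, and *IFI6* at 0.517, 0.713 and 1.39. Both rest on few reads, 9, 26 and 46 for *IFI27* and 11, 18 and 37 for *IFI6*. *ISG20*, an exonuclease that degrades RNA, was at 1.40, 3.03 and 2.63. *UBA7* and *UBE2L6*, the activating and the conjugating enzyme that join ISG15 to other proteins, were at 0.659, 1.54 and 1.296 and at 3.78, 7.71 and 7.49. Both enzymes and *ISG15* were higher with each mimic, but *ISG15* stood only 0.19 and 0.14 above its G+C class on the log2 scale. *USP18*, which removes ISG15 and was picked for this role after the values were seen, was at 8.86, 8.42 and 10.8. The abundant *IFITM3*, which blocks virus entry, was at 65.0, 93.3 and 120.4, and *LGALS3BP* at 75.7, 106.7 and 116.7.

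Relatives of *OAS1* and of the *IFIT* genes were also picked after the values were seen. Of these, *OAS3* and *IFIT5* did not share the size of the *OAS1* difference. *OAS3* was at 4.98, 5.94 and 6.69 RPKM in the same libraries, with ratios to NT of 1.19 and 1.34. *OAS2* and *OASL* were at 0 in NT and under 0.08 RPKM with the mimics, too low to show a change. *IFIT5* was at 2.53, 3.60 and 2.93, with ratios of 1.43 and 1.16. *MX1*, a GTPase against viruses that is commonly read as a sign of interferon action, was at 0.348, 0.690 and 0.528, from 31, 73 and 59 reads. Its counting interval in NT (0.236 to 0.4935) lay below that with *miR-195* (0.541 to 0.868) but overlapped that with *miR-497* (0.402 to 0.682).

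Of 13 genes of antigen presentation, 13 were higher than NT with *miR-195* and 12 for *miR-497*, none by 2-fold with *miR-195* and only *PSMB9* by 2-fold with *miR-497* (background 3.18% and 3.95%). Of all genes at 0.1 RPKM or more, 6678 of 12916 and 7419 of 12957 were higher than NT. *PSMB9*, a subunit of the immunoproteasome, was at 0.733, 1.01 and 1.48 RPKM. The most abundant, *B2M*, was at 289, 311 and 287, and *PSME1* at 191.8, 195.5 and 217.1.

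**Figure D5:**
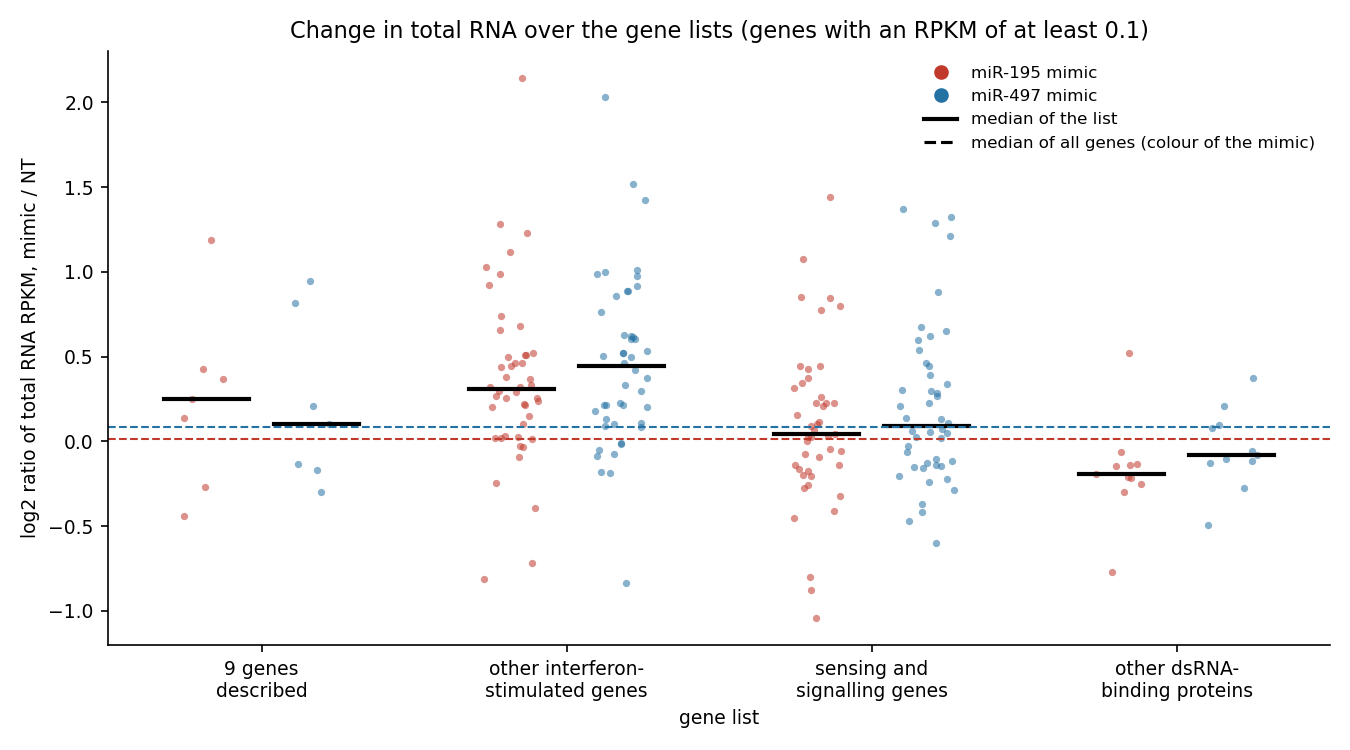
Log2 ratio of each mimic library to NT in total RNA for the genes of 4 lists at 0.1 RPKM or more (points), with the median of each list (black bars) and of all genes (dashed lines in the colour of the mimic). The other interferon-stimulated genes have medians of 0.31 and 0.44, the median of the sensing and signalling genes lies near that of all genes, and the median of the other dsRNA-binding proteins lies below it.

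The genes whose pattern over the 6 libraries was most like the mean of the 7 members above 0 in all 6 were *MAP4K4*, *HABP4*, *SENP2*, *PLCG1* and *MXI1*. Their distances, in log2 RPKM centred on each gene's own mean, were 0.128 to 0.163 among 8580 genes with 1 RPKM or more in every library. None of these is a member or in the lists above. The members themselves lay farther from their mean than that, from 0.823 for *EIF2AK2* to 3.72 for *ISG15*, where all genes had a median distance of 1.13. *OAS1* and *TLR3*, at 0 in at least 1 library, have no distance, and the largest distances, of *ISG15* and *IFIT2*, rest on libraries with 2 to 6 reads.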

How the data were processed

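Total RNA and Ago2-IP RNA of Hep G2 cells were compared in 6 libraries, 1 per condition and kind of RNA. Single reads of 36 bases had been aligned by the authors to hg19 (ELANDv2, CASAVA 1.7) and turned into RPKM, and the deposited RPKM were used as they are. The gene annotation, the strand setting and the libraries with poly-A selection are not given in the sources used here. Of 21891 lines, those of 28 repeated symbols were averaged.

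Reads were inferred from the whole-number ratios of a gene's RPKM for 15064 of 16246 genes above 0 in at least 2 libraries, and intervals for ratios are exact conditional binomial intervals. For 92.0% of 12649 genes the length implied was less than 1.5-fold away from that of a transcript in the annotation. On simulated reads for *miR-195* against NT in total RNA (15064 genes), the reads inferred were equal to those simulated for 97.0% of genes given reads, and intervals held the true ratio for 96.2% of unchanged genes. Reads of genes with high counts are the least certain.

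Members, lists and limits were chosen with earlier results of these data known. Named were the members, list genes with 1 RPKM or more in a total RNA library and a 2-fold difference, the 2 highest of each role, receptors, and the 5 genes nearest to the members' mean, unless stated otherwise. Alternatives were median or upper-quartile scaling, pseudocounts of 0.1 and 1, limits of 0.1 and 1 RPKM, a 1.5-fold limit and, added after seeing the data, centring in classes of length or G+C content. No test between conditions was made. A gene that this rule names and a target site are not reported here. Python 3.11.15, numpy 2.4.6, pandas 2.3.3, scipy 1.17.1 and matplotlib 3.10.9 were used.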

Additional observations from a re-analysis of the deposited data

Results flagged for a closer look

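*DDX58* with *miR-497* moved in opposite directions in the 2 kinds of RNA. Its ratio to NT was 0.888 in total RNA (0.795 to 0.992) and 1.29 in Ago2-IP (1.04 to 1.60), with reads of 617 and 686 in total RNA and of 193 and 158 in Ago2-IP, and the counting intervals lay on either side of 1. With 1 library on each side the difference between these effects was not tested. Centred on genes of like G+C content, the total RNA value was 0.08 above them on the log2 scale and no longer below.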

How the results depend on the processing

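No paired analysis was possible because each group has 1 library. Of the values of medians and counts under other settings, 114 stayed within the counting interval or within 1.5 times the count and 18 did not. For single members, 227 stayed, 6 moved and 4 reversed. The median Ago2-IP to total RNA log2 ratio of members in NT, -2.37, was -0.54 with median scaling, -0.53 with upper-quartile scaling, -0.93 with a pseudocount of 1, -1.35 at 1 RPKM or more, -0.51 centred by length and -0.80 centred by G+C. The 3 members 2-fold higher with *miR-195* became 1 with a pseudocount of 0.1, 0 with 1, and 1 at either RPKM limit. The 1 with *miR-497* became 0 in each of these and 3 at a 1.5-fold limit. The median of other interferon-stimulated genes with *miR-497*, 0.44, was 0.23 and 0.18 with pseudocounts of 0.1 and 1 and 0.20 centred by G+C. *DDX58* reversed with *miR-497* in total RNA centred by G+C (0.082) and with *miR-195* in Ago2-IP under median scaling (-0.12), upper-quartile scaling (-0.077) and length centring (-0.063). Medians of the members in Ago2-IP changed sign with scaling, with *miR-195* from 0.32 to -0.13 and with *miR-497* from -0.12 to 0.13 under median scaling. The cause was not tested. Depth limits *IFIT2*, *TLR3* and most Ago2-IP values.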

Other observations

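The 11 dsRNA-binding proteins outside innate sensing, which handle dsRNA in splicing, editing and small RNA pathways, had medians below NT with both mimics. With *miR-195*, 1 of 11 was higher than NT in total RNA, with a median log2 ratio of -0.20, and with *miR-497*, 4 of 11, with a median of -0.083. Of all genes at 0.1 RPKM or more, 6678 of 12916 and 7419 of 12957 were higher, with medians of 0.015 and 0.083. The most abundant, *ILF2*, was at 233, 203 and 220 RPKM in NT, *miR-195* and *miR-497* cells, and the helicase *DHX9* at 98.9, 82.9 and 90.4. Measured from their own G+C classes, 1 and 5 of 11 stood above the class, with medians of -0.10 and -0.06.

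Of the inflammatory genes that dsRNA can switch on through NF-κB, the chemokines and cytokines were mostly silent. In NT total RNA 3 of 4 other NF-κB target genes were at 1 RPKM or more. Of 10 chemokine and cytokine genes, 5 were listed at 0 in all 6 libraries, *CXCL10* among them, and *IL8* was at 0.318, 0.412 and 0.430 RPKM in total RNA. The 5 of 14 inflammatory genes at 0.1 RPKM or more had median log2 ratios to NT of 0.38 and 0.42 (all genes, 0.015 and 0.083). Measured from their own G+C classes, 4 and 3 of the 5 stood above the class, with medians of 0.25 and 0.24. *NFKBIA*, which feeds back on NF-κB, was at 48.4, 31.9 and 43.3 RPKM, and *ICAM1*, an adhesion molecule, at 12.0, 15.9 and 16.1.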
